A study of Homo sapiens with 6 samples.

Results

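The isolated new LaminB1 stretches are runs of sequence that were called as LaminB1 regions in both libraries of cells that had lost TOP2A and TOP2B and that lay away from any region called in the control cells. They were taken in 1 kb steps on chromosomes 1 to 22 without 20, as runs of at least 10 kb that lay inside regions of both double loss lists and of neither control list, with no region of either control list within 20 kb on either side. The rule gave 734 stretches with 16.3 Mb in all, out of 2108 new stretches of at least 10 kb with 41.7 Mb, so 34.8% of the new stretches were isolated and the other 1374 lay beside a control region. The stretches were thus selected on the called LaminB1 regions of all 4 libraries, and their coverage in those libraries is given as a description, with no test.

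LaminB1 was mapped by CUT&RUN, in which an antibody-bound nuclease releases the chromatin under the protein, in HCT116, a human colorectal carcinoma line. The double loss group had 2 LaminB1 libraries from cells of the genotype TOP2A mAID/TOP2B -/-, in which TOP2B is knocked out and the TOP2A protein carries an auxin-inducible degron, given 500 uM auxin for 8 h. The control group had 2 LaminB1 libraries from TOP2A mAID cells without auxin, which keep TOP2B and carry the same degron tag, although their label reads wildtype. Palbociclib (2 uM, 28 h) arrested all cells in G1, and each group had 1 IgG library.

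LaminB1 is a B-type lamin, an intermediate filament protein of the meshwork that lines the inner nuclear membrane. The chromatin that touches this meshwork forms lamina-associated domains, which are mostly gene-poor, AT-rich and little transcribed, and which depend only in part on the cell type. TOP2A and TOP2B are the type II topoisomerases of mammalian cells, which pass one DNA duplex through a cut in another and so relieve supercoils and tangles.

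The 4 lists held 12410 and 12242 regions in double loss cells 1 and 2, covering 609.8 and 622.2 Mb, and 10771 and 13599 regions in control cells 1 and 2, covering 593.9 and 548.8 Mb. Regions held 8151172 and 8351031 LaminB1 reads in the double loss lists and 7374626 and 7263458 in the control lists; reads outside regions are not in the lists, so total depth is unknown. Each region was scored against reads of a second library, called the background library here, and the double loss lists shared 1 such library, since all 61 regions with the same edges in both had equal background counts. The control lists shared another, with equal counts in all 45 such regions, while between the groups counts were equal in 3 of 154. Genotype, cell line, auxin and background library therefore cannot be told apart. Nothing says whether replicates came from separate cultures. The genes of the targeted proteins give no check of the labels here, because TOP2A, TOP2B and LMNB1 were at 0% covered in all 4 lists and coverage says nothing of protein.

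Few gene starts lay inside the stretches. Promoters at some of these starts are given as examples and do not describe the stretches as a whole. Shown here are RefSeq promoters (GRCh38.p14, 250 bases before to 50 after the start, read in the direction of the gene) of the 8 named genes whose start lay in a stretch, from the longest stretch to the shortest, with each CG pair in capitals. They came from chr14:19773254-19773553 (plus strand) for OR4M1, chr14:19930667-19930966 (plus strand) for OR4K1, chr3:169911322-169911621 (plus strand) for SAMD7, chr12:71157950-71158249 (minus strand) for TSPAN8, chr6:49499673-49499972 (plus strand) for GLYATL3, chr19:56368229-56368528 (minus strand) for ZSCAN5A, chr1:81305882-81306181 (plus strand) for ADGRL2 and chr6:47698330-47698629 (plus strand) for ADGRF4.
OR4M1: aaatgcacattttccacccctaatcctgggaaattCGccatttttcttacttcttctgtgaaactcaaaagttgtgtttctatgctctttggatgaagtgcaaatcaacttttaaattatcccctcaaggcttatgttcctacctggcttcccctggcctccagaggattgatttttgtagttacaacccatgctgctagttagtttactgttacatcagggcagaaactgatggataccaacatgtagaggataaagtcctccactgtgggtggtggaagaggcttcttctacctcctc
OR4K1: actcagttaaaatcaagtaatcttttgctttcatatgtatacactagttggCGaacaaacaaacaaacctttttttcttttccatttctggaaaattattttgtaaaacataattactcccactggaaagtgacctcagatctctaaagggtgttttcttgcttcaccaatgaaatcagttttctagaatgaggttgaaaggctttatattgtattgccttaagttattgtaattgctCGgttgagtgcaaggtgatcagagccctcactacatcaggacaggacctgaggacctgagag
SAMD7: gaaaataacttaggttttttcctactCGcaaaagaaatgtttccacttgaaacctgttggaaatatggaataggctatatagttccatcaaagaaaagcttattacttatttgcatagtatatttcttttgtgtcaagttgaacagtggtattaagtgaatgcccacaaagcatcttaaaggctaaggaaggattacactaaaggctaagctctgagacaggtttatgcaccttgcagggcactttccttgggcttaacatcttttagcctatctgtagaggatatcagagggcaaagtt
TSPAN8: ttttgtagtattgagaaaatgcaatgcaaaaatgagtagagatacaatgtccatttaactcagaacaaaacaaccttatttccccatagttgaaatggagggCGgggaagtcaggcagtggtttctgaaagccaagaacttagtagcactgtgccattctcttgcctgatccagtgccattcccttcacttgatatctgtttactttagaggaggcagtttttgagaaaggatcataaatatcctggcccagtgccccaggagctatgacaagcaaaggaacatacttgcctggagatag
GLYATL3: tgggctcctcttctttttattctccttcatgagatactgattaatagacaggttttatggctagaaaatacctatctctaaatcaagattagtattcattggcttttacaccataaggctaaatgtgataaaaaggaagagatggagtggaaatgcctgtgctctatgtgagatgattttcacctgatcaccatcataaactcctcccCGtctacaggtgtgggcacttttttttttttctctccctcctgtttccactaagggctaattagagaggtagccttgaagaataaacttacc
ZSCAN5A: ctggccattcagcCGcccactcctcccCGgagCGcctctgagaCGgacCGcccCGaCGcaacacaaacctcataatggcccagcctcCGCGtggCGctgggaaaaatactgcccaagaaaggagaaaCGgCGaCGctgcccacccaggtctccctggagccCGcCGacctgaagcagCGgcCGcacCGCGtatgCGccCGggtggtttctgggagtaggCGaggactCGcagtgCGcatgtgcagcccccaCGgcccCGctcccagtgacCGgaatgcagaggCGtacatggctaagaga
ADGRL2: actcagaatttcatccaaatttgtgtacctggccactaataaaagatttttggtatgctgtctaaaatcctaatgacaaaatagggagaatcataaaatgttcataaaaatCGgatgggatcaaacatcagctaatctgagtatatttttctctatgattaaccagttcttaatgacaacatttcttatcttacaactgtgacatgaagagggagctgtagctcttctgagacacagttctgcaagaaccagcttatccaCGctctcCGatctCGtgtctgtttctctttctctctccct
ADGRF4: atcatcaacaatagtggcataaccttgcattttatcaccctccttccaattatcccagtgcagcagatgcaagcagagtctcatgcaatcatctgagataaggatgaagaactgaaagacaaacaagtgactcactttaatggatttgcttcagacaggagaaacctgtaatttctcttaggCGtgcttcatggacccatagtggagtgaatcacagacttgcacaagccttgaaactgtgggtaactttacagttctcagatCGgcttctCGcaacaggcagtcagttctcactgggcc

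The promoters of OR4M1, SAMD7, TSPAN8 and GLYATL3 held 1 CG pair in 300 bases each, that of OR4K1 2, that of ADGRF4 3 and that of ADGRL2 4. ZSCAN5A, a zinc finger gene, was the exception among the 8, with 28 CG pairs and a GC content of 66.3%, against 36.7% in OR4K1, an olfactory receptor gene, and 42.3% in TSPAN8, a tetraspanin gene of gut epithelium.

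A single miRNA hairpin of the 1423 in the RefSeq table lay inside a stretch, MIR198 on chromosome 3. Its mature product is shown because it is the 1 miRNA that the stretches hold, from chr3:120395703-120395724 (minus strand), with the seed at bases 2 to 8 in capitals.
hsa-miR-198: gGUCCAGAggggagauagguuc

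Over all 20 promoters in the table whose start lay in a stretch, the median GC content was 42.5% and the median number of CG pairs 2.5, against 62.7% and 22 over all 14717 promoters matched outside chromosome 8. In 16 of the 20 promoters (80.0%) there were 10 CG pairs or fewer, against 28.6% of all promoters. Starts in stretches called in all 4 lists had a median GC content of 46.7% and 4 CG pairs, and those in sequence outside every list 63.3% and 23. The promoters in the isolated new stretches were CG-poor, as were those in sequence that was LaminB1-covered in both groups; the difference from other promoters was not tested. The letters TATAAA, searched on both strands, were found in 5 of the 20 promoters (25%), against 9.88% of all, and OR4K1 was the 1 of the 8 printed promoters to hold them. A match of 6 letters is a description and not a bound site. Of 17874 protein-coding genes outside chromosome 8, 82.3% had a promoter in the table.

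Isolated new stretches outnumbered their mirror image. The same rule with the groups exchanged gave 272 isolated lost stretches with 5.27 Mb, so new stretches were 2.70 times as many and 3.10 times as long in sum. Isolation was also more common among new stretches (34.8% of 2108) than among lost ones (23.8% of 1144). A new stretch had a median length of 18 kb, with quartiles of 14 and 23 kb and a range of 10 to 368 kb, against a median of 14 kb for isolated lost stretches and 15 kb for new stretches beside control regions. At least 50 kb was reached by 29 stretches and 100 kb by 6. The excess over lost stretches depended on the chromosomes taken. With all of chromosomes 1 to 22 and X, new stretches stayed at 734 and lost ones rose to 344, a ratio of 2.13. The chromosomes left out of the rule thus added lost stretches only. The excess also depended on how deep in each list regions were read. When each list was cut to its upper 50% by log2 fold, 616 new and 429 lost stretches were found, a ratio of 1.44, and 210 of the 734 stretches were still overlapped. The background libraries of the groups also differed. Median background reads per kb of region were 8.22 and 8.24 in double loss 1 and 2, against 6.39 and 6.41 in control 1 and 2. The part of this in the excess was not tested.

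The limit on length cut through a smooth range of runs, and at the limit on distance the number of runs dropped. Isolated runs of 9 kb numbered 29 and those of 10 kb 30, and without a minimum length there were 1005 runs with 17.7 Mb. New runs of at least 10 kb whose nearest control region was 15 to 19 kb away numbered 85, and those at 20 to 24 kb 43. Leaving out 1 library, which drops its condition from the rule, gave between 1194 (without control 1) and 1652 (without double loss 2) new stretches, so a single list of either group would have given many more.

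The stretches were unevenly spread over the chromosomes. Chromosome 4 held 133 of them, 18.1% of all and 69.9 per 100 Mb, against 10 isolated lost stretches. Chromosome 12 had 66 new and 13 lost stretches (49.5 new per 100 Mb), chromosome 3 had 75 and 8, chromosome 6 had 67 and 11 and chromosome 7 had 57 and 10. New stretches were more numerous on 17 of the 21 chromosomes. On chromosome 9, 15 new stretches stood beside 34 lost ones, and on chromosome 13, 5 beside 17. Chromosomes 16 and 18 had equal numbers, 8 and 22 of each kind. Chromosome 2 was rich in both kinds, with 74 new and 61 lost.

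**Figure D1:**
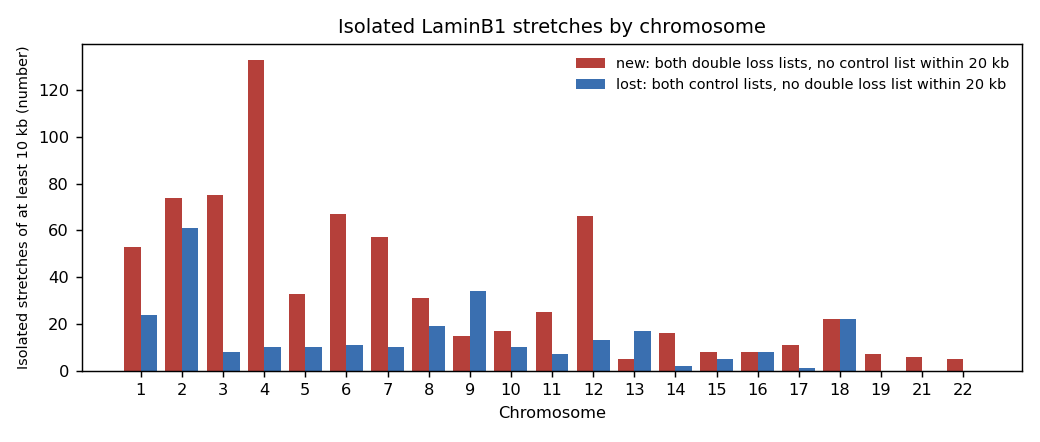
Number of isolated LaminB1 stretches of at least 10 kb on each chromosome, new in double loss cells (red) beside lost from them (blue). Chromosome 4 stands highest with 133 new and 10 lost stretches, and chromosomes 9 and 13 have more lost than new.

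Many stretches lay far from any sequence that was LaminB1-covered in control cells. The nearest control region was a median of 97.5 kb away, with quartiles of 44.0 and 389 kb, and 100 stretches (13.6%) had none within 1 Mb. For isolated lost stretches the nearest double loss region was a median of 47.0 kb away, the farthest lay 995 kb away and none of the 272 reached 1 Mb. The stretches at 1 Mb or more were on chromosomes 6 (18), 4 (17), 2 (17), 5 (13), 7 (13) and 12 (10) above all. The farthest, chr4:95714001-95735000, lay 8830 kb from the nearest control region, and 3 others among the 5 farthest were also on chromosome 4, with the fifth at chr5:89021001-89038000. The regions that held these 5 had log2 folds between 0.27 and 0.41 in double loss 1 and between 0.28 and 0.58 in double loss 2. The median over all regions was 0.51 in double loss 1, above all 5, and 0.50 in double loss 2, above 4 of the 5.

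**Figure D2:**
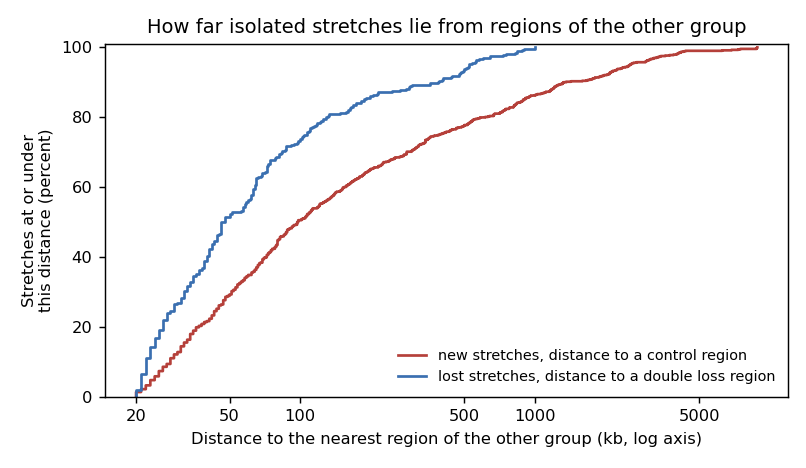
Cumulative percent of stretches by distance to the nearest region of the other group (kb, log axis), for isolated new stretches and for isolated lost ones. The curve of new stretches lies to the right, with a median of 97.5 kb against 47.0 kb, and reaches 8830 kb against 995 kb.

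Stretches were spread over 379 gaps between control regions, and part of them stood many to a gap. Of these gaps, 248 held just 1. The 28 gaps with 5 or more held 248 stretches, while isolated lost stretches had 3 gaps of that kind with 26 stretches. Gaps of at least 1 Mb held 341 stretches (46.5%), although 74.5% of all sequence free of control regions lay in such gaps, so per base the shorter gaps held more. Next to a stretch there was often another, within 100 kb for 375 of 734 (51.1%), about as for isolated lost stretches (49.3%).

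The gaps with the most stretches were picked out after their values were seen. The gap chr2:184019001-194966000 spanned 10.9 Mb and held 19 stretches with 401 kb. Within it, double loss 1 covered 982 kb, double loss 2 covered 985 kb and 450 kb were covered in both, so most of what each list called there was not in the other list. The gap chr4:86785001-104565000 held 18 stretches in 17.8 Mb, with 840 kb covered in double loss 1, 882 kb in double loss 2 and 436 kb in both. Another such gap, chr12:72153001-76964000, held 14 stretches with 294 kb in 4.81 Mb, with 695 kb, 698 kb and 382 kb. All 14 lay in its first part, between positions 72353001 and 73483000, and 5 of them overlapped TRHDE, which encodes an ectoenzyme that degrades thyrotropin-releasing hormone. The longest of the 14, chr12:72701001-72757000, lay in a region with 1063 LaminB1 and 638 background reads (log2 fold 0.67) in double loss 1 and in one with 730 and 427 reads (log2 fold 0.70) in double loss 2.

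**Figure D3:**
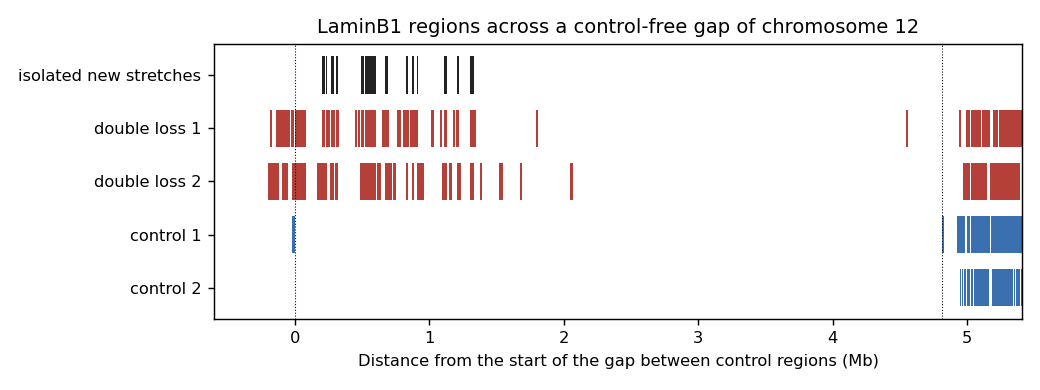
LaminB1 regions of each list across the gap of chromosome 12 between 2 control regions, plotted by distance from the start of the gap (Mb), with double loss lists above control lists and the isolated new stretches marked. The 14 stretches lie in the first part of the 4.81 Mb, and neither control list has a region inside the gap.

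The regions that held stretches were weaker than the average region of their list. The 734 stretches fell in 693 regions of double loss 1 and 696 of double loss 2. Their median log2 fold over background was 0.48 in double loss 1 and 0.46 in double loss 2, against 0.51 and 0.50 for all regions of those lists. Ranked within the list from weakest at 0 to strongest at 100%, their medians were 42.0% and 41.5%. The weakest 10% of each list held 92 and 98 of them and the strongest 10% held 38 and 30. A median region had 301 LaminB1 and 212 background reads in double loss 1 and 318.5 and 222.5 in double loss 2. Per kb this was 11.8 LaminB1 reads in both lists, against 12.2 and 12.3 over all regions, and 8.08 and 8.10 background reads, against 8.22 and 8.24. The authors' adjusted p-value was above 0.001 for 10.5% and 9.63% of them, against 7.72% and 7.79% of all regions. Across the 734 stretches the fold had a Spearman correlation of 0.61 between the 2 double loss lists, which share a background library. In both lists 210 stretches lay in the stronger 50% of regions, 337 in the weaker 50%, and 187 differed.

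Fold also varied with place. Stretches 20 to 49 kb from a control region had a median rank of 53.5%, and those at 1 Mb or more 38.2%. By chromosome the median rank was lowest on chromosomes 22 (4.86%, 5 stretches), 17 (9.48%, 11 stretches) and 8 (10.9%, 31 stretches), and highest on chromosomes 3 (57.4%), 7 (56.7%) and 4 (56.6%). Over all called regions in double loss 1 the median log2 fold was 0.23 on chromosome 22, 0.27 on 17 and 0.42 on 8, against 0.54 on chromosome 3 and 0.56 on 4. The edges of a stretch were seldom those of the called regions of both double loss lists at once. They equalled the region of double loss 1 in 172 cases, that of double loss 2 in 140 and both in 3. For 41 stretches the region of 1 double loss list ran on until it overlapped a control region, and for 693 neither did.

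The long stretches were of 2 kinds. Of the 29 stretches of at least 50 kb, 15 had a mean rank of at most 9.53%, and the other 14 had mean ranks between 45.3% and 89.9%, with none between; the limit of 10% was set after these values were seen. The 15 weak ones had log2 folds of 0.06 to 0.32 in double loss 1 and 0.06 to 0.26 in double loss 2, and the 14 others 0.51 to 0.73 and 0.45 to 0.72. Background reads differed too, at 10.9 to 22.2 per kb in double loss 1 and 10.4 to 21.7 in double loss 2 in the weak kind, against 7.37 to 8.25 and 7.39 to 8.34 in the other kind. LaminB1 reads in double loss 1 were 12.6 to 26.5 per kb in the weak kind and 11.3 to 12.9 in the other. The part of the background density in the calls was not tested. The weak kind lay on chromosomes 8 (8 stretches), 14 (2), 22 (2), 4, 10 and 17, and the other kind on chromosomes 1, 2, 3, 4 and 12.

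**Figure D4:**
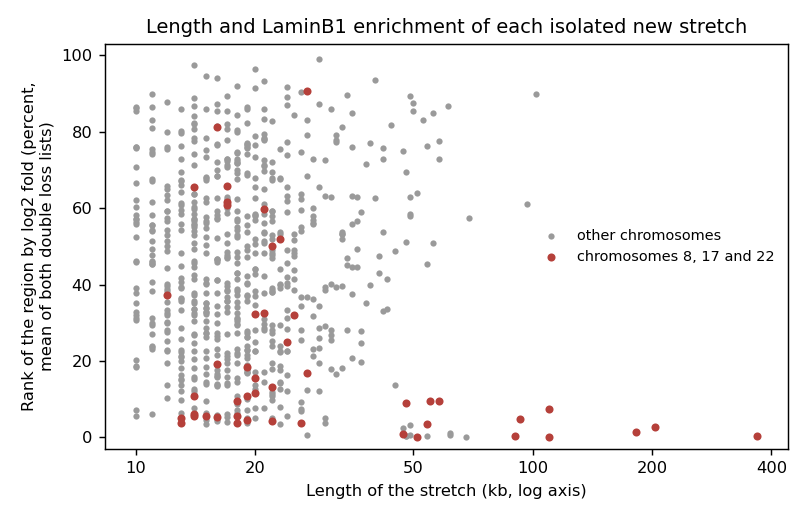
Length of each of the 734 isolated new stretches (kb, log axis) against the rank of its regions by log2 fold (percent, mean of both double loss lists), with the 3 chromosomes of lowest median rank (8, 17 and 22) in red. Among stretches of at least 50 kb, 15 lie at or below 9.53% and 14 at or above 45.3%.

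The longest stretch, chr8:124598001-124966000, was of the weak kind. Its 368 kb lay 1020 kb from the nearest control region, in a region of 393 kb with 5837 LaminB1 and 5196 background reads in double loss 1 (log2 fold 0.10, rank 0.218%) and in one of 417 kb with 6354 and 5571 reads in double loss 2 (log2 fold 0.11, rank 0.221%). It took in part of MTSS1, which encodes a membrane-binding actin regulator. The stretch of 182 kb at chr17:71701001-71883000 held no protein-coding gene and had log2 folds of 0.18 and 0.17 in double loss 1 and 2. Both stretches of 110 kb, chr8:88964001-89074000 and chr8:126442001-126552000, had no protein-coding gene either. The second lay in a region with 1666 LaminB1 and 1513 background reads in double loss 2, a log2 fold of 0.06. Of the stretches in the weak kind that overlapped genes, chr10:121771001-121839000 took in part of ATE1, an arginyltransferase gene, with log2 folds of 0.06 and 0.09 (with adjusted p-values of at most 0.01 ATE1 was at 0% in double loss 2), and chr4:91150001-91212000 part of CCSER1, with 0.11 and 0.15. In each of these regions LaminB1 reads exceeded background reads by little, over many reads.

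The longest stretch of the other kind was chr3:175218001-175320000, 102 kb inside NAALADL2. It lay 48 kb from a control region, and its regions had 2138 LaminB1 and 1231 background reads in double loss 1 and 2783 and 1603 in double loss 2, with log2 folds of 0.73 and 0.72 and ranks of 89.96% and 89.7%. Others of this kind among the 12 longest, taken at most 1 per 1 Mb, were chr2:183694001-183791000 (97 kb, no protein-coding gene, log2 folds 0.53 and 0.58), chr3:148492001-148561000 (69 kb, no protein-coding gene, 0.60 and 0.48) and chr3:162188001-162246000 (58 kb, no protein-coding gene, 0.67 and 0.60). The strongest stretch by rank was chr1:169961001-169990000, 29 kb inside KIFAP3, an adaptor of the kinesin-2 motor. It lay 41 kb from a control region. The regions that held it had 451 LaminB1 and 219 background reads in double loss 1 (log2 fold 0.98) and 360 and 184 in double loss 2 (0.89). Of the next 4 by rank, 2 lay in NAALADL2, 1 on chromosome 2 outside genes and 1 at PLOD2, a lysyl hydroxylase gene.

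The stretches were poor in genes. No protein-coding gene was overlapped by 482 of them (65.7%, exact binomial 95% interval 62.1 to 69.1%, counting error only), against 59.2% of new stretches beside control regions, 62.1% of isolated lost stretches and 58.6% of stretches in all 4 lists. Protein-coding gene bodies took up 30.4% of their length, against 37.1% of new stretches beside control regions and 45.2% of sequence outside every list. Starts of protein-coding genes with a promoter in the RefSeq table stood at 1.35 per Mb outside chromosome 8. This was close to the 1.38 per Mb of stretches in all 4 lists and below the 7.03 per Mb of sequence outside every list. Starts without such a promoter were not counted, among them those of OOSP1, SPRR2D and OR4K5, which lay wholly inside stretches. Neighbouring stretches share genes and domains and are not replicates, so no test was made of these differences.

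In all, 171 of 18589 protein-coding genes (0.920%) were overlapped, and they were long. Their median length was 231 kb, against 24.6 kb for all and 68.1 kb for the 2989 genes covered in at least 1 list, and 87 of them (50.9%) exceeded 200 kb. A longer gene is more easily touched, and its part in this was not tested. The stretch lay in the interior of the gene in 117 cases, took 1 end in 45, both ends in 2 and the whole gene in 7. In 165 of the 171 (96.5%) the lower of the 2 double loss shares exceeded the higher of the 2 control shares, against 21.9% of those 2989 covered genes; the rule used this contrast, so nothing is read from it. Both control libraries were at 0% for 92 of the 171 genes. At least 50% of the body was covered in both double loss libraries in 42, and 16 had at least 50% of their body inside the stretches themselves. These counts rest on the coverage that the rule used, so nothing is read from them either.

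Whole genes inside stretches came from tandem families, a remark made after their names were seen. OR4M1, OR4K1 and OR4K5, olfactory receptor genes of chromosome 14, SPRR2D and SPRR2A, small proline-rich genes of the cornified envelope on chromosome 1, OOSP1, an oocyte secreted protein gene, and MS4A6A of the MS4A family, both on chromosome 11, were each 100% covered in double loss 1 and 2 and 0% in control 1 and 2. Whether reads were shared among members of these families was not tested. The olfactory receptor stretches were of the weak kind, with log2 folds of 0.14 and 0.18 for chr14:19752001-19814000, which also touched OR4Q3 and OR4N2. When the regions were limited to adjusted p-values of at most 0.01, the difference between groups was 0 for OR4K1 and OR4K5. OR4N2 was 100% covered in double loss 1 and 38.6% in double loss 2, and OR4Q3 100% and 3.81%, with both at 0% in control 1 and 2. These 5 were the olfactory receptor genes overlapped, of 391.

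Among the genes of at least 20 kb, the largest difference in covered share was that of SAMD7, a photoreceptor gene of the Polycomb machinery. It was 100% covered in double loss 1 and 85.5% in double loss 2, and 0% in both control libraries. Its stretches on chromosome 3 were weak, with log2 folds of 0.13 in double loss 1 and 0.25 and 0.06 in double loss 2, and with the upper 50% of regions the difference between groups was 0. MTSS1 was 73.4% covered in double loss 1 and 100% in double loss 2, against 0% in both control libraries, and its difference was also 0 with the upper 50% of regions. GLYATL3, of the glycine N-acyltransferase family, had 71.3% and 99.7% in double loss 1 and 2, against 0% in both control libraries, from a stretch of 37 kb with log2 folds of 0.38 and 0.40. In none of these 3 genes did the difference remain when the weaker 50% of each list was left out.

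In the next genes part or all of the difference was left in the stronger 50% of regions. TSPAN8 was 75.7% covered in double loss 1 and 79.0% in double loss 2, against 0% in both control libraries, by the stretch chr12:71134001-71182000. That stretch lay 952 kb from the nearest control region. The regions that held it had 842 LaminB1 and 555 background reads in double loss 1 (log2 fold 0.54) and 581 and 393 in double loss 2 (0.49). With the upper 50% of regions the share of TSPAN8 was 75.7% in double loss 1 and 0% in double loss 2, so it rested on 1 library there. NELL2, a secreted protein of neurons, was overlapped by 7 stretches on chromosome 12 and was 62.9% and 74.9% covered in double loss 1 and 2, against 0% in both control libraries (34.3% and 50.8% against 0% and 0% in the upper 50% of regions). DOCK10 was overlapped by 5 stretches and was 71.5% and 85.6% covered in double loss 1 and 2, against 0% and 10.98% in control 1 and 2 (56.4% and 65.6% against 0% and 10.98% in the upper 50%). NAALADL2 had 94.4% and 95.8% in double loss 1 and 2, against 33.6% and 30.2% in control 1 and 2, over 1370 kb. In the upper 50% it had 94.4% and 95.8% against 18.9% and 12.9%. KIFAP3 had 64.2% and 60.4% in double loss 1 and 2, against 10.99% and 19.5% in control 1 and 2, and the same 4 shares in the upper 50%. The isolated stretches themselves held 72.9% of TSPAN8, 55.9% of NELL2, 36.7% of DOCK10, 29.3% of KIFAP3 and 15.6% of NAALADL2.

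CROT, the carnitine octanoyltransferase of peroxisomes, and ABCB4, the phosphatidylcholine transporter of the bile canaliculus, are neighbours on chromosome 7 and shared 1 stretch of 11 kb. CROT was 81.5% and 62.4% covered in double loss 1 and 2, against 0% in both control libraries. ABCB4 was 67.3% covered in both double loss libraries, against 20.9% and 0% in control 1 and 2. HEPACAM2, an immunoglobulin-type adhesion gene of the same chromosome, had 65.1% and 62.8% in double loss 1 and 2, and TSPAN12, a tetraspanin of Norrin signalling, 55.4% and 60.1%, both against 0% in the control libraries. FAM174A was 87.1% and 62.3% covered in double loss 1 and 2 and ADGRF4, an adhesion G protein-coupled receptor gene, 53.0% and 100%, again against 0% in both control libraries. These genes were picked because stretches chosen on this contrast overlap them, so nothing is read from the gap between the groups. The covered shares count all regions. The isolated stretches themselves held 6.45% of ABCB4, 20.3% of CROT, 29.7% of HEPACAM2, 32.4% of TSPAN12, 53.0% of ADGRF4 and 62.3% of FAM174A. Of these 6 genes the double loss libraries differed most in ADGRF4, which in the upper 50% of regions had 53.0% in double loss 1 and 0% in double loss 2.

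**Figure D5:**
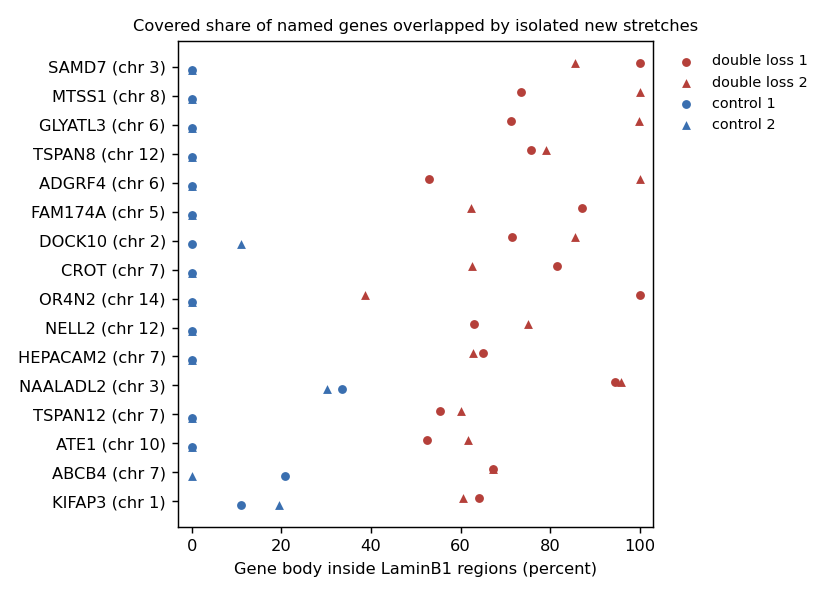
Percent of each named gene's body inside LaminB1 regions in each library, double loss 1 and 2 in red and control 1 and 2 in blue (circle for 1, triangle for 2). Plotted are the 16 named genes of at least 20 kb, overlapped by stretches, with the largest difference of mean share. Both double loss points lie to the right of both control points in each, but the genes were chosen by this difference, so nothing is read from it. DOCK10, NAALADL2, ABCB4 and KIFAP3 are the genes with a control point above 0.

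By family, the stretches touched few members. Tetraspanins had 2 of 20 genes overlapped, adhesion G protein-coupled receptors 2 of 26, cytochromes P450 2 of 54, solute carriers 7 of 371, ABC transporters 1 of 43, olfactory receptors 5 of 391 and zinc finger ZNF genes 3 of 524, against 171 of 18589 over all protein-coding genes (0.920%). Among solute carriers, SLC2A13, a myo-inositol transporter, was 69.2% and 55.3% covered in double loss 1 and 2, against 17.1% and 18.8% in control 1 and 2. SLC25A21, a mitochondrial carrier, had 64.9% and 66.3% against 37.6% and 25.3%, and SLC44A1, a choline transporter, 45.1% and 46.9% against 0% in both control libraries. The isolated stretches themselves held 9.97% of SLC2A13, 2.83% of SLC25A21 and 11.3% of SLC44A1. CYP4A22, of the fatty acid hydroxylases, had 100% and 95.4% in double loss 1 and 2, and CYP39A1, an oxysterol hydroxylase of bile acid synthesis, 46.9% and 16.5%, both against 0% in the control libraries. With adjusted p-values of at most 0.01, CYP4A22 was 100% covered in double loss 1 and 0% in double loss 2. In the upper 50% of regions SLC44A1 had 5.16% and 0% in double loss 1 and 2. CYP4A22 and CYP39A1 were at 0% in both there. SLC2A13 kept 17.1% and 12.8% against 0% in both control libraries, and SLC25A21 35.2% and 43.7% against 3.44% and 9.10%.

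Of the long neuronal genes, 4 of 31 were overlapped (12.9%), against 171 of 18589 over all protein-coding genes (0.920%). A longer gene is more easily touched, and the part of gene length in this was not tested. The 3 named here were already partly covered in control cells. NRXN3, a presynaptic adhesion gene, was 64.1% and 64.9% covered in double loss 1 and 2, against 56.4% and 56.7% in control 1 and 2. CNTNAP2, of the same superfamily, had 47.8% and 49.8% against 31.3% and 29.03%, and MAGI2, a synaptic scaffold gene, 43.6% and 48.0% against 22.8% and 13.4%. ADGRL2, a latrophilin of the adhesion receptor list, had 18.2% and 13.2% against 11.2% and 5.82%. In these genes the new stretches lay at least 20 kb from the control regions, as the rule asks. The stretches held 2.24% of NRXN3, 2.26% of CNTNAP2, 1.46% of MAGI2 and 5.80% of ADGRL2, so most of each covered share lay outside them. Of the zinc finger genes, ZNF582 differed most between replicates. It had 95.0% and 2.32% in double loss 1 and 2, against 0% in both control libraries, while ZSCAN5A had 42.2% and 40.1% against 10.9% and 22.2%, and ZNF423 7.80% and 13.7% against 0% in both. ZNF582 and ZNF423 were at 0% in all 4 libraries in the upper 50% of regions. ZSCAN5A had 0% and 4.56% there in double loss 1 and 2, and 0% in both control libraries. In PLOD2 the groups overlapped, at 19.1% and 50.8% in double loss 1 and 2, against 23.98% and 0% in control 1 and 2.

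No stretch overlapped any of 22 claudins, 53 clustered protocadherins, 149 keratins and keratin-associated proteins, 24 FGF ligands and receptors, 47 Wnt genes, 112 cytokines and chemokines, 33 serpins, 22 UGT enzymes, 89 potassium channels, 76 ribosomal proteins, 37 proteasome subunits, 74 replication-dependent histones, 19 genes of DNA topology and loop extrusion or 14 genes of the nuclear lamina and inner membrane. The 20 intestinal epithelium genes, which include the markers of the labelled origin such as EPCAM, VIL1 and CDH1, were likewise untouched, and 2 of them were covered in any list. At the 0.920% of all protein-coding genes, lists of these sizes hold few overlapped genes or none, so nothing is read from these zeros. Among the 53 clustered protocadherins, 51 were covered in at least 1 list, and 33 had both double loss shares above both control shares. Over all protein-coding genes this held for 656 of the 2989 covered in at least 1 list (21.9%). The median difference over the 53 was 23.04 points, and none held an isolated stretch. Clustered genes are neighbours and are not replicates, so no test was made.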

How the data were processed

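LaminB1 region lists of 4 CUT&RUN libraries were used as the authors deposited them, on hg38, 1 list per library. The submitters' processing notes name Bowtie2 2.3.4.3 and Picard, and the caller of the regions is not given in the sources used here. Per the file headers, each list gives whole-number counts of LaminB1 and control library reads per region, raw and adjusted p-values (no adjusted one above 0.05), a log2 fold and a score. The score that the authors deposited is 100 times their log2 fold, and that fold is the log2 ratio of the counts minus 1 constant per list, 0.07 and 0.08 in the double loss lists and 0.27 and 0.32 in the control lists. Folds were used within a list only. Files were matched to samples by name, and the 2 IgG libraries were not used here on their own.

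Runs, gaps and shares were computed in 1 kb steps with scipy 1.17.1, pandas 2.3.3, numpy 2.4.6 and Python 3.11.15, and tested on made intervals. Genes, promoters and miRNAs are from RefSeq on GRCh38.p14, with the primary coordinates of hg38. The promoter table was used without chromosome 8. A gene counts as overlapped from 1 bp. No genome sequence was used, so base content of the stretches was not analysed here.

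The stretches and the gene lists were chosen with earlier results of these data known. Named were the 12 longest stretches (at most 1 per 1 Mb), the 5 strongest by mean rank, the 5 farthest from control regions, their genes (up to 3 each), up to 3 overlapped members of each list by covered share, the 12 overlapped genes with the largest difference of mean share among those of at least 20 kb, and TOP2A, TOP2B and LMNB1; other features named were chosen after their values were seen. Alternatives changed run length, flank, joining, p-value and fold limits, chromosomes and libraries.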

Additional observations from a re-analysis of the deposited data

How the results depend on the processing

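With runs of at least 20 kb there were 301 new stretches (9894 kb, 84 genes) and 71 lost ones (2587 kb). A flank of 50 kb left 132 lost stretches (2992 kb). The upper 50% of regions by log2 fold gave 429 lost stretches (10268 kb), while 616 new ones were within 1.5 times the 734. Counting genes with at least 50% of the body in stretches gave 16. Leaving out 1 library in turn, which also removes its condition, gave 1194 to 1652 new stretches (26116 to 43820 kb, 294 to 394 genes) and 575 to 767 lost ones (10656 to 16789 kb). Runs of at least 5 kb, a flank of 10 kb, joining regions, adjusted p-values of at most 0.01 and adding chromosomes X and 20 left the number of new stretches between 664 and 914. Adding chromosomes X and 20 left it at 734 and gave 344 lost stretches (7457 kb). New stretches outnumbered lost ones under every setting listed here, by 1.44 to 4.24 times. Of 33 named genes higher in both double loss libraries, 14 stayed so with the upper 50% of regions, 5 had a higher mean without both libraries being higher, and 14 showed no difference. With adjusted p-values of at most 0.01 these were 29, 2 and 2. The cause of these shifts was not tested beyond what each setting removes. No paired analysis was possible because the stretches come from a rule on all 4 lists and not from a test. Depth is known only inside regions, which limits how far a region missing from a list can be read as absent.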
